A study of Mus musculus with 6 samples.

Results

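The presynaptic release machinery is the set of proteins that stores neurotransmitter vesicles at the axon terminal, docks them, fuses them with the membrane and takes them back. It was followed here through 46 mouse genes chosen by symbol, out of 46078 genes in the count tables, and every one of the 46 was matched to a row. RNA sequencing was performed on 3 stroke infarcts and 3 pieces of contralateral cortex from wild type C57BL/6J male mice aged 3 months, all of which had undergone distal middle cerebral artery occlusion with hypoxia. Tissue was collected 7 weeks after the stroke, infarcts were dissected by eye, and the contralateral piece was the corresponding region of the unlesioned hemisphere of stroked mice, so no tissue from mice without a stroke enters the comparison. The question was how far expression of these genes differed between chronic infarct and cortex, and which genes departed from the change that the set shared.

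At a terminal, a rise in calcium makes synaptotagmins trigger fusion of vesicles whose SNARE proteins, on the vesicle (*Vamp1*, *Vamp2*) and on the target membrane (*Snap25*, *Stx1a*), have already begun to zip together. Complexins hold that complex in a ready state, and the active zone scaffold of RIM, Munc13, Bassoon, Piccolo and ELKS proteins places vesicles near calcium channels and primes them. After fusion, dynamin, amphiphysin, synaptojanin and the clathrin adaptor AP180 retrieve the membrane. Many of these genes belong to families in which a neuronal form has a relative that serves secretion or membrane traffic in most cells.

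All 46 genes were lower in infarct than in contralateral cortex. The median log2 fold change was −2.85, which is 7.19-fold lower, and the individual values ran from −3.94 for *Syt2* to −1.43 for *Syt11*. A gene was called when its Benjamini-Hochberg adjusted *p* in edgeR's quasi-likelihood test was under 0.05 and its log2 fold change was beyond 1. By this rule 46 of 46 were called lower and 0 were called higher, with adjusted *p* values from 2.93e-07 to 0.00733. The 46 were chosen with earlier results of these data known, so this count describes the set and is no independent test. Of all 15554 genes tested, 20.9% were called lower and 25.7% were called higher. The 3 infarct values lay below the 3 contralateral values for each of the 46 genes. Groups without overlap, in either direction, were common in the lists described below. They were found for 29 of 31 other presynaptic genes and 28 of 31 widely expressed relatives. No share over all genes is given for this measure. With limma voom and with DESeq2 the count of genes called lower was also 46 and that called higher 0, and 0 were higher in edgeR at an unadjusted *p* under 0.05. Fewer neurons and less of each RNA per neuron cannot be told apart in tissue of this kind.

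**Figure D1:**
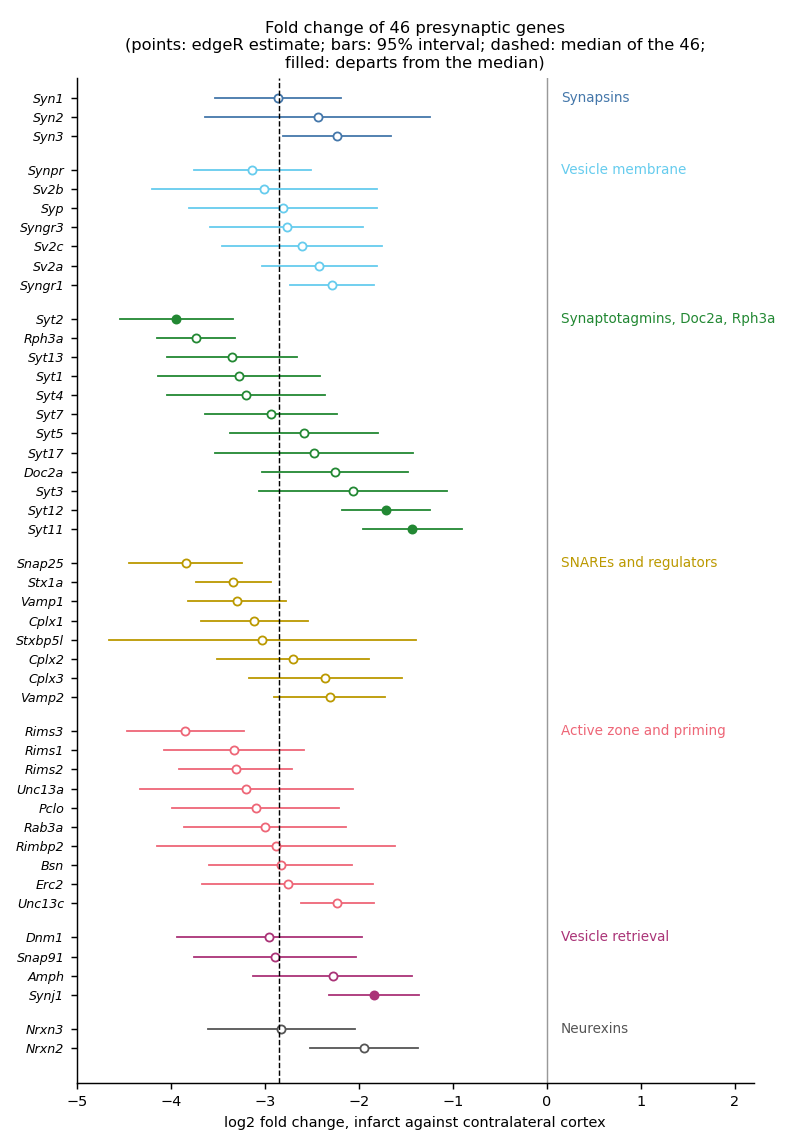
Log2 fold change of each of the 46 genes in infarct against contralateral cortex, grouped by role, with the edgeR estimate as a point and its 95% interval as a bar. Every interval lies below 0, the dashed line marks the median of −2.85, and the 4 filled points are the genes more than 1 log2 unit from it whose interval leaves it out.

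Libraries held between 11943570 and 19933962 counts on genes. Levels are given in CPM, read counts divided by library size, after scaling by the trimmed mean of M values (TMM). With library totals as the only scaling, the median of all genes moved by 0.203 on the log2 scale and the median of the 46 was −2.63. The lowest count of any of the 46 in an infarct was 13 (*Cplx3*). The lowest in contralateral cortex was 107 (*Syn3*), so no cortical level was near 0. Some infarct levels were low, among them *Cplx3* at 1.04 CPM, *Syt17* at 1.43 CPM and *Syn3* at 1.67 CPM in infarct 1. Summed per library, the 46 genes reached 1943 CPM in infarct 1, 2677 CPM in infarct 2 and 4480 CPM in infarct 3, against 20942, 21745 and 22778 CPM in contralateral 1, 2 and 3.

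The synapsins, which tether vesicles to one another in the reserve pool, fell by 2.86 (*Syn1*), 2.44 (*Syn2*) and 2.23 (*Syn3*) on the log2 scale. *Syn1* measured 42.7, 53.2 and 92.6 CPM in infarcts 1, 2 and 3, and 427, 402 and 539 CPM in contralateral 1, 2 and 3 (log2 fold change −2.86 ± 0.29 SE, edgeR adjusted *p* = 3.49e-05). *Syn2* varied more among the infarcts, at 29.4, 91.9 and 132 CPM, and its highest infarct was still below the lowest cortex at 393 CPM. *Syn3* was the least expressed of the 46 per kilobase (kb) of exon in both tissues.

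The 7 vesicle membrane genes fell by 2.28 to 3.13 on the log2 scale. *Synpr*, synaptoporin, changed most, from 705, 541 and 527 CPM in cortex to 43.5, 90.1 and 68.5 CPM in infarct (−3.13 ± 0.27 SE, edgeR adjusted *p* = 9.61e-06). *Syp*, synaptophysin, the most widely used label of synaptic vesicles, measured 40.5, 44.7 and 120 CPM in the infarcts against 480, 460 and 493 CPM in cortex (−2.80 ± 0.43 SE, edgeR adjusted *p* = 0.000766). Infarct 3 held 2.95 times the *Syp* of infarct 1, and the groups still did not overlap. Of the SV2 glycoproteins, *Sv2b* fell by 3.01, *Sv2c* by 2.61 and *Sv2a* by 2.42 on the log2 scale. Synaptogyrins *Syngr3* and *Syngr1* fell by 2.77 and 2.28.

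The synaptotagmins and their C2 domain relatives *Doc2a* and *Rph3a* had the widest range of the 7 roles. *Syt1*, the calcium sensor for fast synchronous release in forebrain neurons, measured 229, 326 and 656 CPM in infarct and 3631, 3957 and 4156 CPM in cortex (−3.28 ± 0.38 SE, edgeR adjusted *p* = 8.18e-05). *Syt2*, the fast sensor of other neuron populations including parvalbumin interneurons, measured 7.25, 4.04 and 6.42 CPM in infarct and 68.0, 98.6 and 106 CPM in cortex (−3.94 ± 0.27 SE, edgeR adjusted *p* = 1.58e-06). *Rph3a*, the Rab3 effector rabphilin, fell by 3.73 with the smallest adjusted *p* of the set (2.93e-07, edgeR), and its 3 infarcts were close together at 21.6, 23.9 and 29.8 CPM. *Syt7*, a slow high-affinity sensor, fell by 2.94, and *Syt13*, *Syt4*, *Syt5*, *Syt17* and *Syt3* fell by 3.35, 3.20, 2.59, 2.48 and 2.07. *Doc2a*, a sensor tied to spontaneous and asynchronous release, fell by 2.25. For 5 of the 46 genes more than 10% of the exon length is shared with a gene transcribed the opposite way (*Doc2a* 39.4%, *Syt12* 17.2%, *Syp* 16.8%, *Syt4* 14.5% and *Syn3* 14.1%), so their values may hold reads of that gene if strand was not used in counting.

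Among the SNAREs, *Snap25* fell most, from 1725, 2084 and 2085 CPM in cortex to 107, 113 and 192 CPM in infarct (−3.84 ± 0.27 SE, edgeR adjusted *p* = 1.76e-06). Syntaxin 1A, *Stx1a*, its partner on the target membrane, fell by 3.33 ± 0.18 SE and had 10.7, 9.03 and 12.2 CPM in the infarcts against 107, 97.2 and 119 CPM in cortex. The vesicle SNAREs differed from one another, *Vamp1* at −3.30 ± 0.23 SE and *Vamp2* at −2.31 ± 0.26 SE. Complexins fell by 3.11 (*Cplx1*), 2.70 (*Cplx2*) and 2.36 (*Cplx3*). *Stxbp5l*, a tomosyn that competes for the target membrane SNAREs, had the largest error of the 46, with 6.53, 4.04 and 25.5 CPM in the infarcts against 92.2, 99.9 and 104 CPM in cortex (−3.03 ± 0.67 SE, edgeR adjusted *p* = 0.00733). Without infarct 1 its value was −2.71 and its edgeR adjusted *p* was 0.0513, the only one of the 690 gene values under 15 alternative settings that was no longer called.

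At the active zone, the RIM genes fell by 3.84 (*Rims3*), 3.33 (*Rims1*) and 3.31 (*Rims2*) on the log2 scale. *Rims3* was the only one of the 46 that was lowest in infarct 3, with 30.8, 18.1 and 17.0 CPM in the infarcts against 244, 348 and 354 CPM in cortex. The vesicle priming genes *Unc13a* and *Unc13c*, which encode Munc13 proteins, fell by 3.20 and 2.23. Giant scaffolds *Pclo* and *Bsn* fell by 3.10 and 2.83, the small GTPase *Rab3a* by 3.00, and *Rimbp2* and *Erc2* by 2.88 and 2.76. Of the retrieval genes, *Dnm1* (the neuronal dynamin that cuts vesicles from the membrane) fell by 2.95, *Snap91* (AP180) by 2.89, *Amph* by 2.28 and *Synj1* by 1.84. The presynaptic adhesion genes *Nrxn3* and *Nrxn2* fell by 2.82 and 1.95.

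A gene was described as departing from the common fall when its log2 fold change lay more than 1 from the median of the 46 and its 95% interval left out that median. This is a description with no *p*, and 4 genes met it, *Syt2* on the low side and *Synj1*, *Syt12* and *Syt11* on the high side. *Syt11*, a synaptotagmin that does not bind calcium and takes part in membrane retrieval, fell least, with 172, 226 and 336 CPM in infarct against 690, 612 and 676 CPM in cortex (−1.43 ± 0.24 SE, edgeR adjusted *p* = 0.000482). Infarct 3 retained 51.0% of the cortical mean of *Syt11* and infarct 1 retained 26.0%. *Syt12*, another synaptotagmin that lacks calcium binding, had 9.48, 6.54 and 9.69 CPM in infarct against 25.2, 32.4 and 26.6 CPM in cortex (−1.71 ± 0.21 SE, edgeR adjusted *p* = 6.51e-05). *Synj1*, the phosphoinositide phosphatase that strips clathrin from retrieved vesicles, had 197, 246 and 338 CPM in infarct against 904, 1018 and 878 CPM in cortex (−1.84 ± 0.21 SE, edgeR adjusted *p* = 4.90e-05). All 4 were called lower, and none of them overlapped between the groups.

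The line between these genes and the next was thin on both sides. *Rims3* and *Snap25*, at −3.84 each, lay just inside 1 log2 unit of the median on the low side. On the high side *Synj1* passed by a small margin, at 1.004 above the median, and *Nrxn2* at −1.95 was the nearest gene inside. Over 14 other settings of tool, scaling, filter and library, *Syt11* lay more than 1 above the median of the set in 14, *Syt12* in 13, *Synj1* in 10 and *Syt2* more than 1 below it in 9. *Syt12* was within 1 of the median without infarct 1, *Synj1* without infarct 1, infarct 2 or contralateral 3 and with library totals, and *Syt2* without infarct 2, infarct 3 or contralateral 2, with limma voom and with a replicate term. *Snap25* and *Rims3* were more than 1 below it in 3 settings each, *Rph3a* in 1, and *Doc2a* was more than 1 above it in 1. For 12 of the 46 genes the 95% interval left out the median.

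The 3 infarcts differed in how much of the machinery they retained. Infarct 3 had the highest CPM of the 3 for 41 genes, infarct 1 had the lowest for 36, and both held for 33. As a percentage of the contralateral mean, the median of the 46 was 8.24% in infarct 1, 12.8% in infarct 2 and 21.3% in infarct 3. Infarct 3 exceeded infarct 1 by a median ratio of 2.43, with a range from 0.551 (*Rims3*) to 4.51 (*Sv2b*). That ratio was under 1.5 for 9 genes, *Rims3*, *Syt2*, *Syt12*, *Stx1a*, *Unc13c*, *Vamp1*, *Rph3a*, *Doc2a* and *Rims2*. The median log2 fold change of the 46 was −2.52 without infarct 1 and −3.26 without infarct 3.

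**Figure D2:**
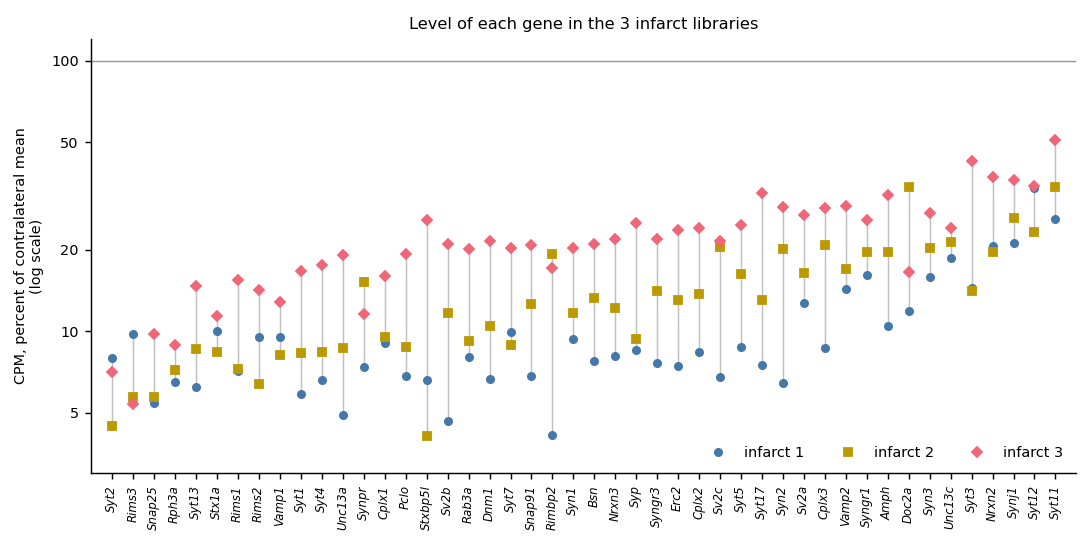
CPM of each gene in the 3 infarct libraries as a percentage of its mean in contralateral cortex, on a log axis, ordered by the mean of the infarcts. Infarct 3 (diamonds) is the highest for 41 genes, and all values lie below 100% with *Syt11* in infarct 3 the highest at 51.0%.

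Markers of other cells moved with the infarcts as well. The summed CPM of 12 pan-neuronal markers was 462, 737 and 1211 in infarcts 1, 2 and 3 and between 4017 and 5003 in cortex, and all 12 were called lower, with a median log2 fold change of −2.61. Of 8 markers of microglia and macrophages 8 were called higher, with a summed level between 5936 and 9579 CPM in infarct and between 226 and 305 CPM in cortex. For 7 lymphocyte and plasma cell markers the sums were 2364, 936 and 328 CPM in infarcts 1, 2 and 3 and at most 6.09 CPM in cortex, where *Cd2* was at 0, and all 7 were called higher. All 6 fibroblast markers were called higher as well, with sums between 6762 and 8474 CPM in infarct and between 80.5 and 119 CPM in cortex. Of the glial and vascular lists, 2 of 7 astrocyte, 3 of 6 oligodendrocyte and 3 of 6 endothelial markers were called higher and 0 lower. The part of these cells in the fall of the presynaptic genes was not tested. Of 6 markers of striatal neurons, 1 was called lower, 1 higher and 4 neither, with a median log2 fold change of 0.174. Their sums were 36.1, 121 and 86.3 CPM in infarcts 1, 2 and 3, and between 189 and 202 CPM in cortex. Whether the infarct and cortex pieces held the same mix of neurons was not tested.

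Levels were compared between genes only per kb of exon. In cortex *Cplx1* (511 CPM per kb), *Syt1* (469 CPM per kb) and *Snap25* (289 CPM per kb) were the 3 highest. *Cplx1* and *Syt1* also held ranks 1 and 2 in infarct, at 59.1 and 48.4 CPM per kb, while *Syt11* moved from rank 11 in cortex to rank 3 in infarct (47.0 CPM per kb), *Synj1* from rank 13 to rank 5 and *Snap25* from rank 3 to rank 10. Across the 46 genes, the log2 fold change was weakly related to the log2 cortical level per kb (Pearson *r* = −0.254, Spearman rho = −0.260), a description over genes that share the same 6 libraries.

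Ratios between members of a family do not depend on how libraries are scaled. Per kb, *Syt4* over its sister *Syt11* was 0.623, 0.743 and 0.733 in cortex and 0.177, 0.170 and 0.241 in infarct. *Vamp1* over *Vamp2* was 0.103, 0.166 and 0.145 in cortex and 0.0908, 0.0661 and 0.0603 in infarct, and *Unc13a* over *Unc13c* was 3.59, 5.32 and 3.79 in cortex and 1.10, 1.70 and 3.32 in infarct. *Nrxn2* over *Nrxn3* went the other way, from 0.539, 0.421 and 0.528 in cortex to 1.27, 0.793 and 0.840 in infarct. For these 4 pairs, and for *Sv2a* over *Sv2b* and *Bsn* over *Pclo*, the ranges of the groups did not overlap, and for the other 6 of the 12 pairs compared they did, among them *Syt1* over *Syt2* and *Cplx1* over *Cplx2*. The pairs were chosen after the values had been seen, and 3 libraries per group give no *p* here.

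The promoters of 33 of the 46 genes were read from the RefSeq windows of GRCm38.p6. Each window had 250 bases before and 50 bases after a transcription start (46 windows, since some genes have several). The 3 motifs searched, on both strands, were TCAGCACC and GGACAG, the left and right arms of RE1, the site of the repressor REST that silences neuronal genes in other cells, and TGACGTCA, the cyclic AMP response element (CRE). The left arm was present in 2 windows (4.35%, of *Syn1* and *Unc13a*) against 1.69% of all 21263 windows, the right arm in 13 (28.3%) against 22.3%, and CRE in 1 (2.17%, of *Syn1*) against 2.23%. The sequences shown are those of *Syn1*, whose window holds both an RE1 arm and CRE, and of *Syt2*, which fell most. They run 5′ to 3′ on the strand of the gene and end before any annotated exon of that gene, and capitals mark the motifs found.
Syn1 (chrX:20921005-20921168, minus strand): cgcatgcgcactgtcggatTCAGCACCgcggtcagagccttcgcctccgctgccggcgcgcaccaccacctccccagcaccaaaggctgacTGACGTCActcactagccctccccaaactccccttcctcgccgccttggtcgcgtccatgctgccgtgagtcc
Syt2 (chr1:134646362-134646611, plus strand): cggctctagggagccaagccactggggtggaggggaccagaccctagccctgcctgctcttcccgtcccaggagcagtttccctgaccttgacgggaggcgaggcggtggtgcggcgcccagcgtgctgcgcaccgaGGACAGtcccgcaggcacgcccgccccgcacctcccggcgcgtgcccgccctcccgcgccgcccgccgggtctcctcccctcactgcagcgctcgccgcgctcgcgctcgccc
In *Syn1* the RE1 arm began 231 bases before the RefSeq start and CRE began 159 bases before it. The *Syt2* match began 113 bases before its start, and no other motif of the 3 was found in that stretch. Matches did not overlap one another. Only exact matches of each arm were searched, so a marked arm does not show that the rest of RE1 is absent. A match of letters describes the window and says nothing of binding.

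Another 31 genes of neuronal release that are not among the 46 were examined beside them. Of these 26 were called lower and 0 higher (0 higher also with DESeq2, and in edgeR at an unadjusted *p* under 0.05), with a median log2 fold change of −2.61, beside the 20.9% of all genes called lower. The 3 largest falls were those of *Syt16* (−3.42 ± 0.30 SE), *Cadps2* (−3.23 ± 0.46 SE), a priming protein for dense core vesicles, and *Ppfia3* (−3.22 ± 0.34 SE), a liprin scaffold. *Rims4* (−3.16), *Rab3c* (−2.73) and *Dnm3* (−2.95) were called lower like their relatives among the 46. The 5 not called were *Unc13b* (−0.88, edgeR adjusted *p* = 0.00179), *Syt9* (−0.54, 0.0719), *Tprgl* (−0.19, 0.327), *Ppfia4* (0.25, 0.114) and *Doc2b* (0.66, 0.124). *Doc2b* had 9.32, 12.4 and 25.9 CPM in infarct against 9.61, 9.77 and 10.8 CPM in cortex, while its relative *Doc2a* was called lower, and the difference between the members of such pairs was not tested.

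The widely expressed relatives were a contrast, though the list also holds genes of immune cell secretion that were scarce in cortex. Of 31 listed, 29 were tested, 19 were called higher, 4 were called lower and 6 were neither, with a median log2 fold change of 1.32, beside 25.7% and 20.9% of all genes. *Vamp7* had no counts in any library, and *Syt8* did not pass the filter. The largest rises were those of *Stx11*, a syntaxin of immune cell secretion (6.83 ± 0.51 SE), *Unc13d*, the Munc13 of cytotoxic granules (4.0 ± 0.35 SE), and *Syngr2*, the synaptogyrin of other cells (3.87 ± 0.25 SE). In contralateral 1, 2 and 3, *Stx11* had counts of 4, 1 and 1 and *Unc13d* had counts of 9, 9 and 5. The size of their rises thus rests on cortical levels near 0. *Snap23*, which does the work of *Snap25* outside neurons, rose from 17.0, 12.8 and 11.8 CPM to 71.2, 68.4 and 50.6 CPM (2.18 ± 0.21 SE, edgeR adjusted *p* = 1.25e-05). *Vamp8* rose by 3.64, *Vamp3* by 1.80, *Dnm2* by 1.38, *Sypl* by 1.37, *Picalm* by 1.32 and *Stx4a* by 1.30. The 4 genes called lower were *Sytl2* (−1.76), *Napg* (−1.74), *Snap47* (−1.64) and *Synj2* (−1.45). Neither *Erc1* (−0.37), *Bin1* (−0.75), *Stx3* (−0.55) nor *Vamp4* (−0.43) passed the fold change threshold.

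**Figure D3:**
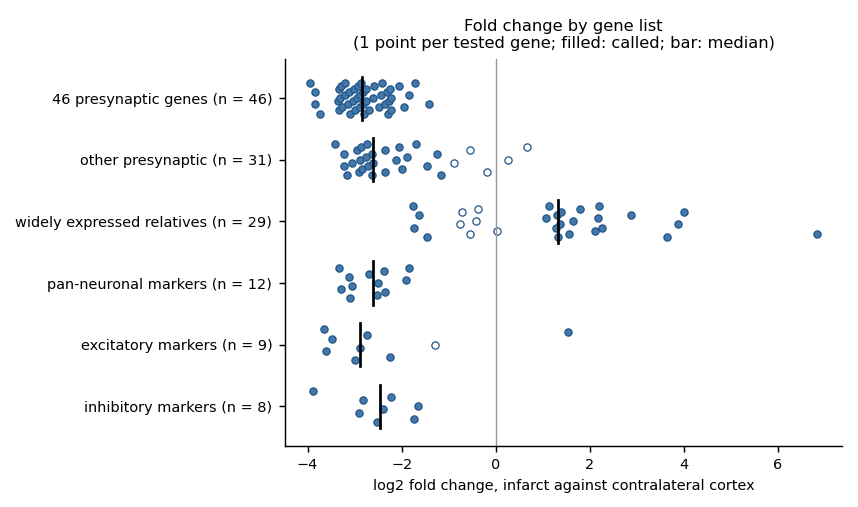
Log2 fold change of every tested gene in the 46 presynaptic genes, 2 lists of related genes and 3 lists of neuronal markers, with 1 point per gene, filled where called, and the median as a bar. The 46 lie wholly below −1, the other presynaptic genes have a median of −2.61 with 5 genes not called, and the widely expressed relatives have a median of 1.32.

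Set against its relative within each library, the neuronal form had a smaller share in infarct in all 12 pairs examined. *Snap25* made up 98.5%, 99.0% and 99.1% of the pair with *Snap23* in cortex, per kb, and 48.6%, 51.0% and 70.6% in infarcts 1, 2 and 3. For *Vamp2* with *Vamp3* the share was 87.1% ± 1.7 (SD, n = 3) in cortex and 27.9% ± 9.2 (SD, n = 3) in infarct, and for *Stx1a* with *Stx4a* it was 90.01% ± 0.67 and 26.4% ± 2.4. Synaptic vesicle proteins behaved alike, *Syp* with *Sypl* going from 94.4% ± 0.56 to 45.3% ± 17.0 and *Syngr1* with *Syngr2* from 98.1% ± 0.70 to 41.2% ± 7.2. For the retrieval gene *Snap91* with *Picalm* it went from 82.3% ± 1.1 to 19.9% ± 10.2. The member was under 50% of the pair in all 3 infarcts for 4 pairs (those of *Vamp2*, *Stx1a*, *Syngr1* and *Snap91*) and in no contralateral library for any pair. *Synj1* with *Synj2* changed least, at 78.3% ± 1.1 in cortex and 73.0% ± 3.4 in infarct, and its ratio ran from 3.39 to 3.83 in cortex and from 2.44 to 3.34 in infarct. These pairs too were set after the values were known, and the shares carry no *p*.

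**Figure D4:**
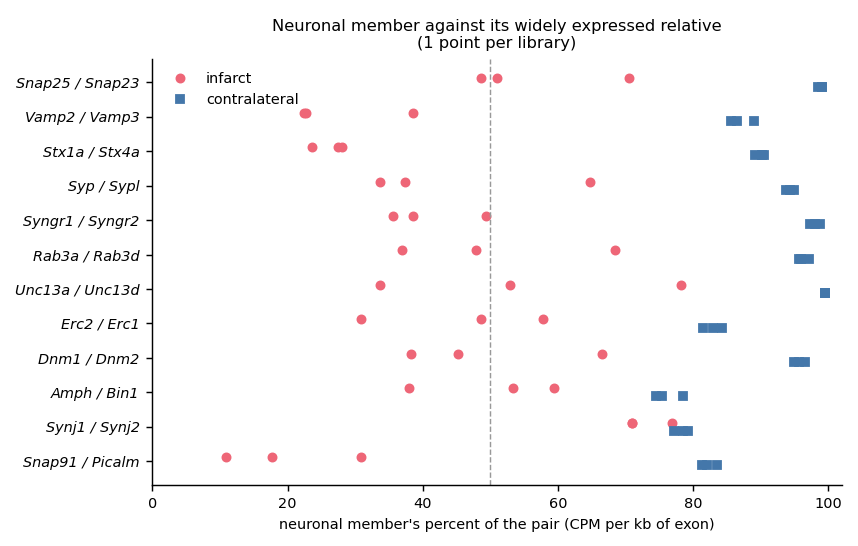
Share of the neuronal member in the summed level per kb of 12 pairs, with 1 point per library, infarcts as circles and contralateral cortex as squares, and the dashed line at 50%. The 3 infarcts lie to the left of the 3 contralateral libraries in every pair, by a narrow margin for *Synj1* with *Synj2*.

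To see how the 46 genes stood beside neuronal RNA as such, the libraries were also scaled to the 12 pan-neuronal markers in place of all genes, an analysis added after the data had been seen. On that scale the median log2 fold change of the 46 was −0.08 and the values ran from −0.996 (*Snap25*) to 1.41 (*Syt11*), with standard errors from 0.50 to 0.56. Of the 46, 2 were called higher, *Syt11* (edgeR adjusted *p* = 0.00879) and *Syt12* (1.25, edgeR adjusted *p* = 0.0156), and 0 were called lower, beside 87.1% and 0.379% of all genes. At an unadjusted edgeR *p* under 0.05 the number lower was also 0, and no other tool was run on this scale. The 95% interval took in 0 for the other 44, which does not show that these genes kept pace with the markers. Calls on this scale moved with the library left out, and no share of all genes is set beside the calls that follow. *Syt11* and *Syt12* were both called higher without infarct 2 or infarct 3 (without infarct 3 also *Synj1*, at 1.16, and *Doc2a*, at 1.04), *Syt11* alone without infarct 1, *Syt12* alone without contralateral 2, and neither without contralateral 1 or contralateral 3. *Syt2*, *Snap25*, *Rph3a* and *Rims3* were called lower without infarct 1 and with the 8 inhibitory neuron markers as the scale, where *Syt11* was called higher and *Syt12* was not, and all 8 of these markers were themselves called lower with TMM scaling. With the 9 excitatory neuron markers, of which 7 were called lower and *Foxp2* higher with TMM scaling, the calls were again *Syt11* and *Syt12* higher.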

How the data were processed

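The authors dissected the tissue, made TruSeq stranded mRNA libraries from RNA with an integrity number above 8, sequenced them paired end on a NextSeq500, trimmed reads with Trimmomatic 0.32, aligned them to GRCm38 with STAR 2.5.2b and counted them with htseq-count, whose version, annotation and strand setting are not given in the sources used here. The deposited values are raw counts per gene for each library, and they were tested as deposited. The 5 tally entries at the end of each table were left out, and genes held 65.7% to 73.4% of each table's sum. Symbols and exon lengths came from GENCODE M21, and 849 genes had no symbol.

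Counts were filtered with filterByExpr, scaled by TMM and tested in edgeR 4.0.16 (R 4.3.3, limma 3.58.1) with a robust quasi-likelihood fit with region as the only term. Calls needed an adjusted *p* under 0.05 over all genes tested and a log2 fold change beyond 1. The 95% interval is the coefficient with its standard error and the *t* quantile of the fit. Alternatives were DESeq2 1.42.0, limma voom, other scalings and filters, other fold thresholds, the replicate number as a block, and leaving out each library. The labels do not say which libraries share a mouse, nor that each is a different mouse, so *p* values measure the spread between these libraries. Library pairs of a region differed by far more than sampling noise, so none was counted as a duplicate. The fit was also run on simulated counts in which few genes changed, in equal numbers each way and with the same spread for every gene. Far more genes changed in these data, so that run does not test the scaling or the calls here. The 46 genes and the lists beside them were chosen with earlier results of these data known. All 46 may be named. From the 2 lists of related genes, those called against their list's direction, the 3 largest changes each way and direct relatives of a member were named. Some genes of the lists are not reported here by name.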

Additional observations from a re-analysis of the deposited data

How the results depend on the processing

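Of 690 gene values of the 46 (15 alternatives each), 689 stayed called lower, 1 was no longer past the threshold (*Stxbp5l* without infarct 1) and 0 turned direction, with values from −4.21 to −1.21. The count called lower was 46 under every alternative but that without infarct 1, where it was 45. The median of the 46 ran from −3.26 (without infarct 3) to −2.52 (without infarct 1) over the libraries left out. Widely expressed relatives called lower were 9 with no fold threshold, which only widens the call, against 4 with it. On the scale of pan-neuronal markers, 0 of the 46 genes were called lower and 2 higher. Over the libraries left out on that scale, those called lower ran from 0 to 4 and those called higher from 0 to 4. With inhibitory neuron markers as the scale instead, 4 were called lower and 1 higher. No share of all genes is set beside these counts, and the cause was not tested.

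Replicate numbers were shared by the 2 regions, but the labels do not say which libraries share a mouse, so they were not treated as pairs. The correlation of deviations of same-numbered libraries was −0.19, 0.10 and 0.001. For differently numbered libraries it ran from −0.24 to 0.18, so these correlations cannot settle whether the libraries are pairs. With the replicate block, the 46 genes called lower were 46, with a median of −2.97, and over all genes 3222 were called lower and 3945 higher, against 3256 and 3999. DESeq2 called 3550 genes lower and 4434 higher. The 3 libraries per region left standard errors of 0.17 to 0.67 on the log2 scale for the 46.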
